A study of Mus musculus with 16 samples.

Results

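The subunits of the mitochondrial respiratory chain were followed across 16 one-colour Agilent arrays of mouse pluripotent stem cell lines. The members were all gene probes whose name in the array files marks a nuclear-encoded subunit of complexes I to V (Ndufa, Ndufb, Ndufc, Ndufs or Ndufv with a number, Sdha to Sdhd, and names beginning Uqcr, Cox4 to Cox8 or Atp5). This rule took 108 probes for 80 genes out of 27670 gene names: 35 genes of complex I, 4 of complex II, 7 of complex III, 18 of complex IV and 16 of complex V. All 80 genes passed the filter on dim probes (105 of 108 probes did), and 75 of them lay in the brightest 25% of the 23161 genes tested. The names are those of the array design. Atp5f1 is now Atp5pb and Uqcr is Uqcr11, while Cox4nb (now Emc8) and Atp5s (now Dmac2l) share a name stem with the subunits but are no core subunits. Genes were assigned to complexes by name stem alone, so counts and medians by complex hold such genes too. A probe of Sdha under another file name was not a member.

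The respiratory chain passes electrons from NADH through complex I and from succinate through complex II to ubiquinone, then through complex III and cytochrome c to complex IV (cytochrome c oxidase), which reduces oxygen. The proton gradient built by complexes I, III and IV drives complex V, the ATP synthase. Several small subunits of complex IV exist as isoforms with their own tissues: Cox6a2, Cox7a1 and Cox8b are heart and muscle forms, and Cox6b2 and Cox8c are testis forms. Naive embryonic stem (ES) cells are known to respire more actively than primed epiblast stem cells (EpiSC), which lean on glycolysis.

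The non-obese diabetic (NOD) lines were EpiSC-like iPS line #6 (passages 7 and 12), EpiSC-like ES line #1 (passages 7, 10, 5 and 9, in replicate order) and 3 arrays of ES cells. The lines labelled non-NOD were EpiSC (passages 12 and 20), 2 arrays titled iPS_EpiSC (cell line label EpiSC iPS), 2 arrays of 129 ES cells labelled mESM P8 and 1 array labelled epiESM P8. Each NOD EpiSC-like group was thus 1 line at several passages. The labels give no treatment and no age, and leave the terms mESM and epiESM and the letters after the NOD ES and iPS_EpiSC titles unexplained. ES cells had been depleted of embryonic fibroblast feeders by preplating, and EpiSC and EpiSC-like cells had been separated mechanically. In a culture that holds more than 1 cell type, fewer cells of a type and less RNA per cell cannot be told apart.

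A level here is log2 of the array's processed signal minus that array's 75th percentile, so 0 stands for a signal at that percentile. Between 26.3% and 88.5% of an array's gene spots were well above background, and no spot was saturated. Some arrays stood apart from their labels. Over the 80 genes, EpiSC iPS replicate 2 lay at a median absolute distance of 0.0542 and 0.0837 (log2) from NOD ES replicates 2 and 3, which is less than the 0.0904 between those NOD ES arrays and the 0.426 between both EpiSC iPS arrays. The array labelled NOD ES replicate 1, with the fewest spots above background, lay nearer to EpiSC iPS replicate 1 (0.361) than to NOD ES replicate 2 (0.574). NOD ES replicate 1 shared a slide with both EpiSC iPS arrays, and no other array lay on that slide. These arrays had the lowest shares of gene spots well above background: 26.3% on NOD ES replicate 1, and 51.2% and 40.5% on EpiSC iPS replicates 1 and 2. Both mESM arrays carry 1 source label and differed by 0.0262. Naive markers had a mean level of 3.89 to 5.5 on the NOD ES arrays, 4.24 to 4.25 on mESM and 4.26 to 5.51 on the arrays labelled EpiSC iPS, against -2.44 to -2.13 on EpiSC and -2.61 to -1.63 on both EpiSC-like lines. The primed epiblast list had 7 of 10 genes higher and 2 lower in the NOD EpiSC-like lines and 9 higher in EpiSC, and of 5 brown fat genes 1 was lower in each. The mean primed level was 3.18 on EpiSC, 1.37 to 1.61 in EpiSC-like ES and -0.51 to -0.35 in EpiSC-like iPS, against -1.69 to -0.52 in NOD ES. Of 7 pluripotency core genes, 7 were lower in the NOD EpiSC-like lines and 4 in EpiSC, with 0 higher in either. Among them Pou5f1 was at -4.34 and -3.32 in EpiSC-like iPS and at 0.96 and 0.35 on EpiSC. The naive markers of the EpiSC iPS arrays thus lay with those of ES cells and apart from those of EpiSC. Counts of members called are given with and without EpiSC iPS replicate 2 and NOD ES replicate 1. Most values of single genes, and the related lists, are given with all arrays only.

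The first comparison set both NOD EpiSC-like lines, weighted equally, against NOD ES cells. In the EpiSC-like lines 25 of the 80 genes fell and 2 rose (limma, adjusted p under 0.05 over all genes tested). Of all genes 38.1% were called in this comparison, 20.8% lower and 17.4% higher. Of the brightest 25% of genes 41.4% were called lower and 18.7% higher. By name stem, the falls covered 12 of the 35 complex I genes, 2 of 7 in complex III, 7 of 18 in complex IV, Cox4nb among them, and 4 of 16 in complex V. No complex II gene was called. The median difference over the members was -0.39 on the log2 scale, against -0.22 over all genes and -0.40 over the brightest 25% of genes, where nearly all members lie. In this scaling the members' median thus lay beside that of other bright genes. Leaving out 1 array moved the count from 27 to 42 without NOD ES replicate 1, to 17 without EpiSC-like iPS replicate 2 or NOD ES replicate 2, and to 16 without NOD ES replicate 3. Without both arrays that stand apart it was 51, with 3 genes higher and 48 lower, but all genes were then called more often too (51.4%, 24.3% higher and 27.1% lower). The counts with 1 array left out, here and below, are given without that share, so they are no measure of the members alone. With slide as a fixed block 7 of the 27 lost their call: Ndufs1, Ndufa5, Ndufb5, Uqcrc2, Cox6b2, Cox7a2l and Atp5l.

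**Figure D1:**
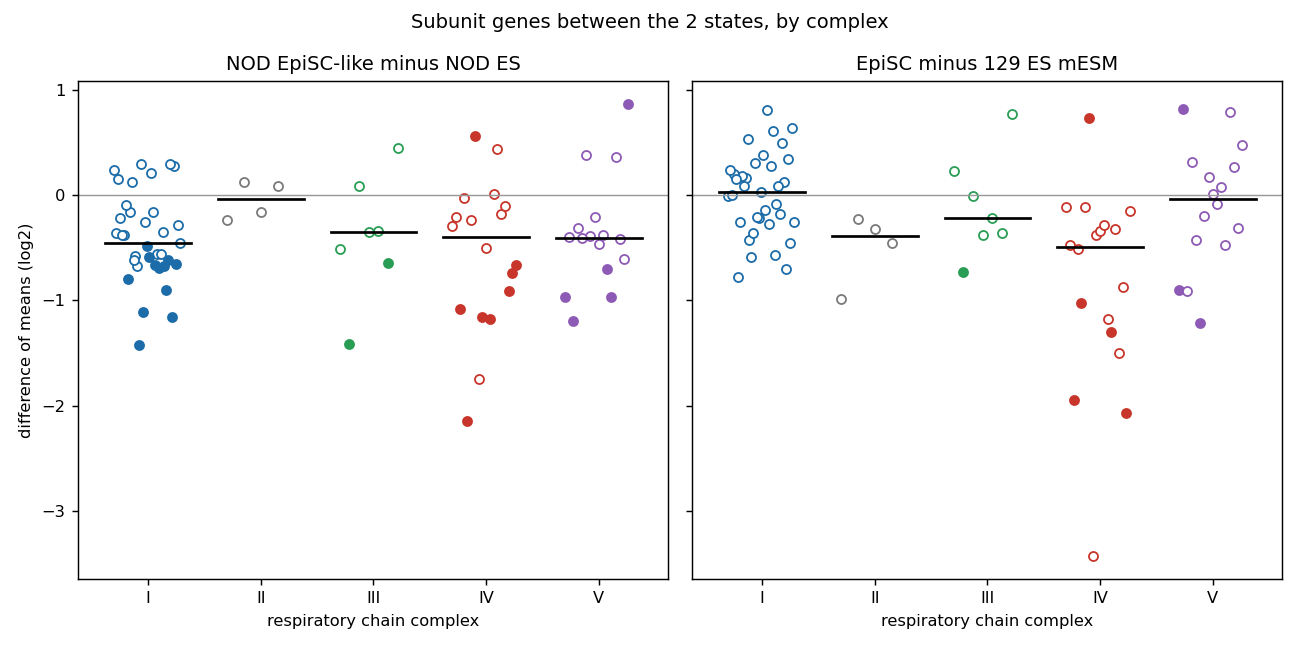
Difference of group means (log2) for each of the 80 subunit genes, by respiratory chain complex, for NOD EpiSC-like minus NOD ES (left) and EpiSC minus 129 ES mESM (right). Filled points passed an adjusted p of 0.05 and black lines are medians; in the NOD lines the medians of complexes I, III, IV and V lie between -0.45 and -0.35, and in the non-NOD lines complex I lies at 0.03 and complex IV at -0.49.

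How many subunit genes were called lower depended on how arrays were scaled to each other. With quantile normalization 9 genes were higher and 12 lower, with scaling to the median of probes measured on every array 11 and 15, and with the deposited values 6 and 12. The shares of all genes called higher and lower were 20.3% and 18.9%, 23.2% and 15.4%, and 20.7% and 18.9% in turn. With normexp background correction 0 genes were higher and 52 lower, beside 17.2% and 15.7% of all genes. The members' median was -0.05, -0.08, -0.13 and -1.59 in these scalings in turn. The normexp value came with 3 arrays on which the members' median lay far below that of mESM: -3.16 for EpiSC-like iPS at passage 7, -1.85 for EpiSC-like ES at passage 7 and -1.27 for EpiSC-like iPS at passage 12. The sign of the median was the same in all 5 scalings for the set as a whole and for complexes I, III, IV and V, and its size was not. The median of the brightest genes, where nearly all members lie, was also below 0 in all 5 (-1.16 to -0.09). The shared sign is thus no trait of the members alone. The median of all genes lay between -0.22 and 0.6, the latter with normexp. Relative to it, the members' median was -2.2 to -0.08 and that of the brightest genes -1.76 to -0.16.

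**Figure D2:**
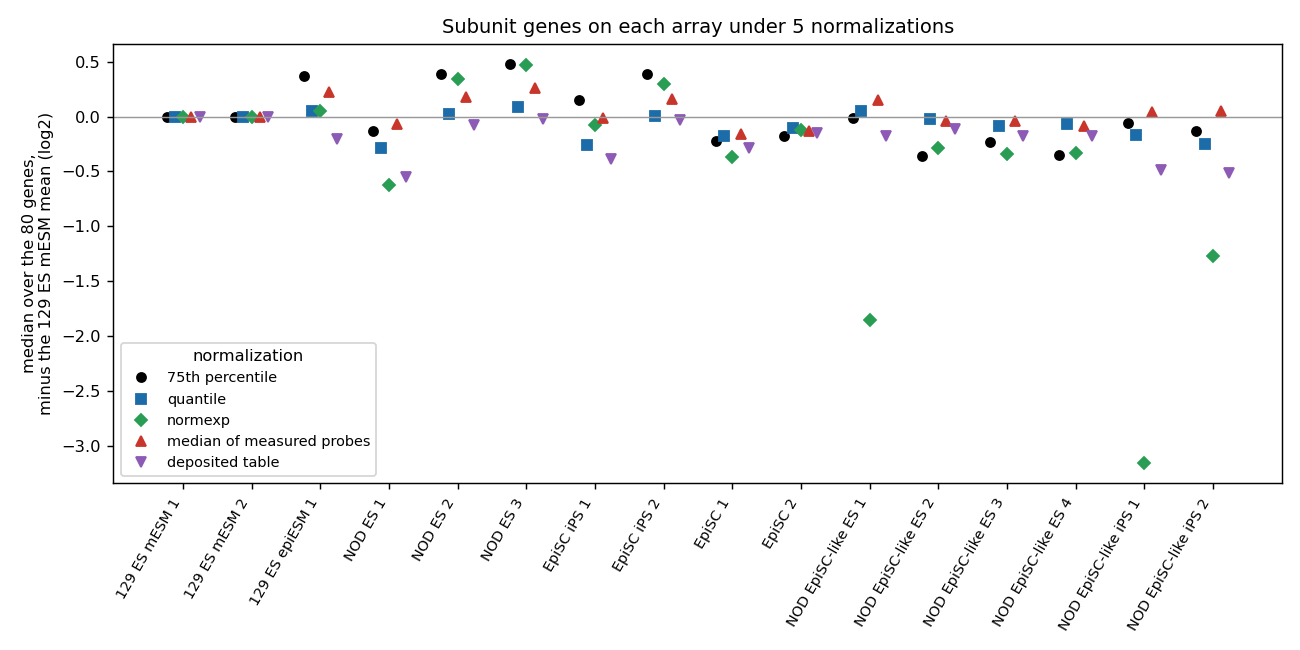
Median over the 80 subunit genes on each of the 16 arrays, minus the mean of both 129 ES mESM arrays (log2), under 5 normalizations (symbols). Most arrays lie within a narrow band around 0, while normexp places EpiSC-like iPS replicates 1 and 2 at -3.16 and -1.27 and EpiSC-like ES replicate 1 at -1.85.

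Of the 27 called genes, 10 were called in the same direction in all 4 other scalings, and none of these was lost when any 1 array was left out. How often calls of all genes were kept in this way was not counted, so the 10 have no background share. All 10 were lower in the EpiSC-like lines. They were Ndufv1, Ndufs1, Ndufs6 and Ndufa9 of complex I, Uqcrc1 of complex III, Cox5b, Cox7a1, Cox7c and Cox4nb by file name in complex IV, and Atp5g1 of complex V.

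Ndufv1 is the subunit of complex I that binds NADH and its flavin cofactor. Its level was 5.16, 5.52 and 5.58 on the NOD ES arrays. It was 4.12, 3.83, 4.13 and 3.79 in EpiSC-like ES and 4.03 and 4.02 in EpiSC-like iPS. Every EpiSC-like array lay below every NOD ES array, and the mean fell by 1.42 ± 0.16 (SE) on the log2 scale (adjusted p = 3.65e-05). On the mESM arrays Ndufv1 was at 4.4 and 4.43, and on EpiSC at 4.11 and 4.01, so that the high values belonged to NOD ES and EpiSC iPS (5.37 and 5.54). Of the other core complex I genes, Ndufs1, the large iron-sulfur subunit, had a difference of -1.16 ± 0.26 (adjusted p = 0.00408). Ndufs1 was at 2.6 and 2.18 in EpiSC-like iPS, at 3.48, 3.31, 3.41 and 3.38 in EpiSC-like ES and at 3.46, 4.33 and 4.37 in NOD ES, where the lowest array, replicate 1, overlapped the EpiSC-like ES line. Its call was lost with slide as a fixed block (adjusted p = 0.0621). Ndufs6 (-1.11 ± 0.25) and Ndufa9 (-0.9 ± 0.17), both accessory subunits, had no such overlap.

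Uqcrc1 is a core protein of complex III. Its level was 5.66, 6 and 5.8 in NOD ES, 4.37, 3.98, 4.33 and 3.89 in EpiSC-like ES and 4.65 and 4.72 in EpiSC-like iPS. The groups did not overlap, and the mean fell by 1.41 ± 0.17 (adjusted p = 5.8e-05), or by 1.49 without both arrays that stand apart. Uqcrc2, the partner core protein, had a smaller difference of -0.64 ± 0.2 (adjusted p = 0.0241). The Uqcrc2 call was kept in 1 of the 4 other scalings, and it was lost without EpiSC-like iPS replicate 2 or NOD ES replicate 2 or 3 (adjusted p = 0.063 to 0.114).

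In complex IV, Cox5b, Cox5a and Cox7c, small nuclear-encoded subunits without a tissue-specific partner here, had differences of -1.16 ± 0.19, -0.91 ± 0.26 and -1.18 ± 0.22 (adjusted p = 0.000541, 0.0147 and 0.00113). The Cox5a call was lost without NOD ES replicate 2 or 3 (adjusted p = 0.0711 and 0.0826). Cox5b was at 6.14, 6.58 and 6.61 in NOD ES, at 5.81, 5.11, 5.48 and 5.13 in EpiSC-like ES and at 5.16 and 5.21 in EpiSC-like iPS, with no overlap. Cox7c was at 4.69, 4.3 and 4.43 in NOD ES, at 3.87, 2.9, 2.94 and 3.21 in EpiSC-like ES and at 3.4 and 3.3 in EpiSC-like iPS, again with no overlap. The gene under the name Cox4nb, a part of the ER membrane complex and no oxidase subunit, had the largest difference of all members called, -2.15 ± 0.14 (adjusted p = 8.7e-07). It was at 3.05, 3.26 and 3.34 in NOD ES, at 2, 1.87, 2.06 and 2.04 in EpiSC-like ES and at 0.24 and 0.05 in EpiSC-like iPS, so both EpiSC-like lines also lay apart from each other. With every probe tested, Cox4nb and Cox5a were each called on some of their probes only.

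In complex V, Atp5b, the catalytic beta subunit, and Atp5a1, the alpha subunit beside it, each fell by 0.97 (SE 0.17 and 0.2, adjusted p = 0.000674 and 0.002). Atp5b was at 7.43, 7.85 and 7.83 in NOD ES, at 6.85, 6.41, 6.53 and 6.57 in EpiSC-like ES and at 7.01 and 6.76 in EpiSC-like iPS. Atp5a1 was at 6.26, 7.03 and 6.93 in NOD ES, at 5.87, 5.67, 5.73 and 5.88 in EpiSC-like ES and at 5.84 and 5.66 in EpiSC-like iPS. Neither gene's groups overlapped. With every probe tested, Atp5b was called on some of its probes only. Atp5l, the g subunit of the membrane part, rose by 0.87 ± 0.2 (adjusted p = 0.00474), with levels of 3.24, 3.88 and 3.99 in NOD ES, 4.15, 3.93, 4.5 and 4.11 in EpiSC-like ES and 4.93 and 5.02 in EpiSC-like iPS, where 1 array of the ES line reached the NOD ES range. With normexp its difference was -0.51, the opposite sign, and with slide as a fixed block it was 0.37 (adjusted p = 0.293).

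The c subunit of complex V, the proton-carrying ring, is encoded by Atp5g1, Atp5g2 and Atp5g3, which give the same mature protein. Only Atp5g1 was called among them, at -1.2 ± 0.26 (adjusted p = 0.00286), against -0.42 for Atp5g2 and -0.46 for Atp5g3, and the differences between the genes were not tested. Atp5g1 was at 4.07, 5.14 and 5.24 in NOD ES, at 3.88, 3.67, 4.07 and 3.69 in EpiSC-like ES and at 3.54 and 3.28 in EpiSC-like iPS. NOD ES replicate 1 reached the range of the EpiSC-like ES arrays, and without both arrays that stand apart the difference was -1.57.

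One slide held 1 EpiSC-like ES array beside NOD ES replicates 2 and 3. Within it the median over the members was -0.88 and over all genes 0.03, with Cox4nb at -1.43 and Atp5l at 0. These arrays are part of the comparison above and no independent check of it. Markers of fibroblast feeder cells moved with this comparison: 15 of 20 rose and 0 fell, and their mean level was 3.88 to 4.16 in EpiSC-like ES and 2.89 to 3.14 in EpiSC-like iPS against 0.42 to 1.91 in NOD ES. Whether they had a part in the subunit differences was not tested.

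The second comparison set non-NOD EpiSC against 129 ES cells (mESM). Here 7 of the 80 genes fell and 2 rose, beside 24.2% of all genes called, 11.5% lower and 12.6% higher, so that the members' share was no larger than the background. The median difference was -0.21 over the members, -0.28 over all genes and -0.02 over the brightest 25%. No complex I or complex II gene was called, and the median of complex I was 0.03. Complex IV had 4 genes lower and 1 higher and a median of -0.49, which stayed between -0.49 and -0.42 in all 5 scalings, while that of complex I lay between -0.04 and 0.09. Complex III had 1 gene lower, Uqcrc1, and complex V 2 lower and 1 higher.

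The isoforms of complex IV led this comparison. Cox7a1, the heart and muscle form of subunit 7a, was at 3.25 on both mESM arrays and at 1.2 and 1.4 on EpiSC, a difference of -1.95 ± 0.25 (adjusted p = 0.000268). In the NOD lines it was at 2.76, 2.94 and 2.95 in ES cells, at 2.18, 1.56, 1.92 and 1.57 in EpiSC-like ES and at 1.81 and 1.78 in EpiSC-like iPS, a difference of -1.08 ± 0.18 (adjusted p = 0.000578). The epiESM array had 2.79 and the EpiSC iPS arrays 2.56 and 2.94, so every array with naive markers lay above every array without them. Cox7a1 was called in both comparisons in every other scaling, with slide as a block, and whichever array was left out. Its ubiquitous counterpart Cox7a2 had differences of -0.32 and -0.18 in the non-NOD and NOD lines and was not called. Cox7a2l, a relative of these subunits that takes part in supercomplex assembly, went the other way, by 0.73 ± 0.23 in EpiSC (adjusted p = 0.0386) and by 0.56 ± 0.17 in the EpiSC-like lines (adjusted p = 0.0194). Cox7a2l was at 3.25 and 3.21 on mESM, 3.95 and 3.97 on EpiSC, 2.96, 3.13 and 3.07 on NOD ES, 3.79 and 4.29 on EpiSC-like iPS, and 2.99, 3.19, 3.32 and 3.24 on EpiSC-like ES. The rise in the NOD lines thus came with the iPS line, as the ES line overlapped NOD ES, and with normexp the NOD difference was -0.61. In EpiSC the Cox7a2l call was lost without any of 9 single arrays (adjusted p = 0.0528 to 0.176), both mESM and both EpiSC arrays among them, and in the NOD comparison without 2 (adjusted p = 0.0549 and 0.0726).

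Cox6b2, the testis form of subunit 6b, was at 3.05 and 3.04 on mESM and at 1.04 and 0.92 on EpiSC, a difference of -2.07 ± 0.34 (adjusted p = 0.00135) that was kept whichever array was left out. It was at 2.85, 3.59 and 3.63 in NOD ES, at 2.16, 1.64, 2.05 and 1.75 in EpiSC-like ES and at 3.28 and 3.39 in EpiSC-like iPS. The ES line lay below all NOD ES arrays and the iPS line among them. The pooled NOD difference of -0.74 ± 0.25 (adjusted p = 0.0352) was lost without any of 8 single arrays (adjusted p = 0.0529 to 0.145), among them both EpiSC-like iPS arrays and NOD ES replicates 2 and 3. Cox6b1, the form of most tissues, had differences of -0.11 and -0.24 and was not called. The testis and germ line list, which shares no gene with the subunits, had 4 of 9 genes lower in EpiSC and 5 of 9 in the NOD EpiSC-like lines, with 0 higher in either. In the other 4 scalings 1 to 5 were lower in each comparison. Its part in the Cox6b2 difference was not tested.

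Cox6a2, the heart and muscle form of subunit 6a, was at -1.76 and -1.8 on mESM and at -2.78 and -3.37 on EpiSC, a difference of -1.3 ± 0.35 (adjusted p = 0.0186). This call was lost without any of 3 single arrays (adjusted p up to 0.156). In the NOD lines Cox6a2 was at -2.37, -1.72 and -1.6 in ES cells, at -2.84, -2.17, -2.83 and -2.34 in EpiSC-like ES and at -0.53 and -0.19 in EpiSC-like iPS, so both EpiSC-like lines lay on opposite sides of most NOD ES arrays and the pooled difference of 0.44 was not called. Cox6a1, the common form, had -0.47 and -0.21. The heart and skeletal muscle marker list had 2 of 12 genes higher and 0 lower in each comparison, with a mean level of -0.37 to -0.29 in EpiSC-like iPS, -1.27 to -0.79 in EpiSC-like ES, -1.36 to -1 in EpiSC, -1.57 to -0.66 in NOD ES and -1.84 to -1.76 on mESM. Cox6a2 and the muscle list were both highest in EpiSC-like iPS, while Cox7a1 was not, and the part of such cells was not tested.

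The other isoform sets showed no called difference between the states. Cox4i1 differed by -0.11 in EpiSC and -0.29 in the NOD EpiSC-like lines, and Cox4i2, a form known from lung and low oxygen, by -1.18 and 0.01. Cox4i2 was well above background on 1 of 2 EpiSC arrays, so that its difference there is not well measured. Cox8a had differences of -0.51 and -0.03. Cox8b was well above background on neither EpiSC nor mESM arrays. Cox8c, the testis form of subunit 8, was well above background on both mESM arrays (-3.09 and -2.98) and on no EpiSC or NOD ES array. Cox8c passed the filter by 3 arrays, both mESM arrays among them, and would not have been tested without these. Its level in EpiSC was at least 2.23-fold lower, counted against the lowest signal well above background on each EpiSC array. This bound was not tested. The fitted difference was not called (adjusted p = 0.0626) and is not well measured. Complex II, which also belongs to the citric acid cycle, had differences of -0.99 ± 0.35 for Sdha (adjusted p = 0.0638), -0.45 for Sdhb, -0.32 for Sdhc and -0.23 for Sdhd in EpiSC, and of -0.24, 0.09, -0.16 and 0.13 in the NOD lines.

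**Figure D3:**
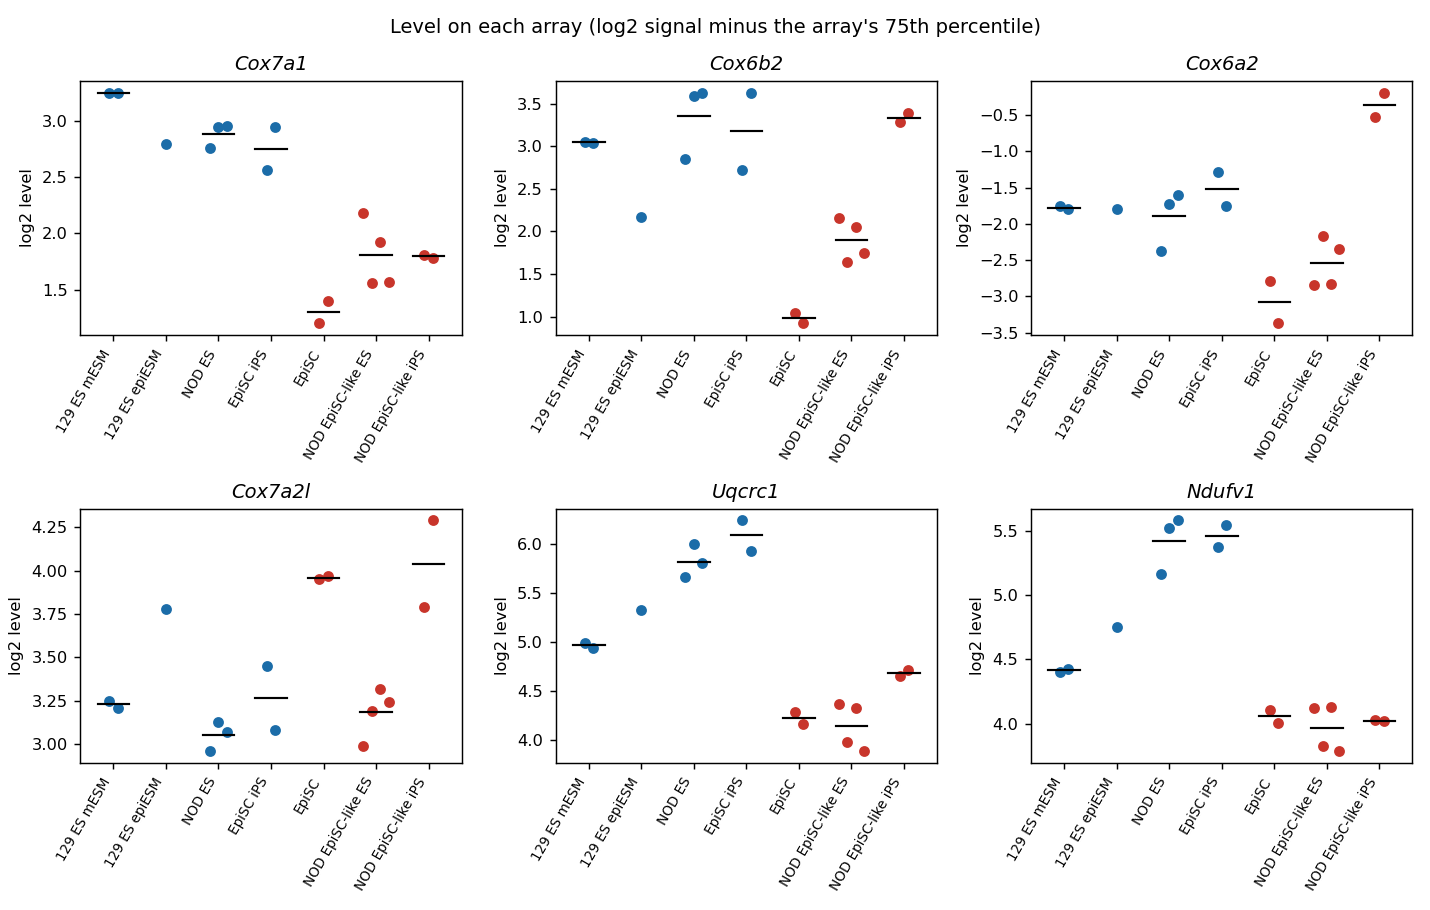
Level of 6 subunit genes on each array (log2 signal minus the array's 75th percentile), by group; points are arrays, lines are group means, blue marks ES-named lines and EpiSC iPS and red marks EpiSC and EpiSC-like lines. Cox7a1 lies at 2.56 or above on all blue arrays and at 2.18 or below on all red ones, while Cox6b2 and Cox6a2 are high in EpiSC-like iPS (3.28 and 3.39; -0.53 and -0.19) and lower in EpiSC-like ES.

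The remaining calls in EpiSC were smaller or less stable. Cox4nb fell by 1.02 ± 0.19 (adjusted p = 0.00292), from 3.17 and 3.15 on mESM to 2.19 and 2.11 on EpiSC, and kept its call whichever array was left out, but not with slide as a fixed block (adjusted p = 0.0757). Another probe of Cox4nb had the opposite sign in this comparison. Uqcrc1 (-0.73 ± 0.24, adjusted p = 0.0425) was at 4.99 and 4.94 on mESM and 4.29 and 4.17 on EpiSC, and its call was lost without any of 10 single arrays (adjusted p = 0.0515 to 0.193). Atp5a1 was at 7.07 and 7.08 on mESM and 6.17 and 6.19 on EpiSC (-0.9 ± 0.27, adjusted p = 0.033), and another of its probes had the opposite sign. Atp5d, the delta subunit of the ATP synthase head, was at 3.34 and 3.36 on mESM and 4.29 and 4.05 on EpiSC (0.82 ± 0.25, adjusted p = 0.0364). The gene under the name Atp5s was at 0.87 and 0.8 on mESM and -0.41 and -0.34 on EpiSC (-1.21 ± 0.33, adjusted p = 0.0199). The Atp5a1, Atp5d and Atp5s calls were lost without 5, 6 and 4 single arrays in turn. With every probe tested, Atp5s was called on some of its probes only.

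Only Cox7a1, Cox6b2 and Cox4nb were called in this comparison when both mESM arrays were averaged as 1 sample, and the same count of 3 was found without either mESM array or without EpiSC replicate 2. It was 4 without EpiSC replicate 1, 5 without EpiSC-like ES replicate 3, 16 without NOD ES replicate 1, and 24 without both arrays that stand apart (8 higher and 16 lower), where 44.6% of all genes were called. With slide as a fixed block only Cox7a1 and Cox6b2 of the 9 kept their call. No slide held both EpiSC and mESM arrays. Fibroblast markers moved here too: 17 of 20 rose and 0 fell, with a mean level of 2.81 to 2.83 on EpiSC and -1.73 to -1.72 on mESM. Their part in the subunit differences was not tested.

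The NOD and the non-NOD comparison share no arrays. Both called Uqcrc1, Cox7a1, Cox6b2, Cox4nb, Atp5a1 and Cox7a2l, the last higher and the others lower. These 6 genes are 22.2% of the 27 called in the NOD lines and 66.7% of the 9 called in the non-NOD lines, beside 43.5% and 68.7% for all 3844 genes called in both.

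The size of the change between states was also compared directly, as the NOD difference minus the non-NOD difference. It was called for 5 members (2 higher, 3 lower), beside 12.5% of all genes called, 4.95% higher and 7.58% lower. Cox6a2 (1.75 ± 0.43, adjusted p = 0.022) and Atp5s (1.59) were higher, and Atp5d (-1.22), Cox4nb (-1.13) and Ndufv1 (-1.06) lower. With every probe tested, Atp5s and Cox4nb were each called on some of their probes only. None of the 5 was called in all 4 other scalings, and all were lost with slide as a fixed block. With either mESM array left out, or both averaged, 0 members were called (12 at an unadjusted p under 0.05). The count was 1 without either EpiSC array, 9 without either EpiSC iPS array, 14 without NOD ES replicate 1, 3 without NOD ES replicate 2 or 3, and 28 without both arrays that stand apart, where 35.4% of all genes were called.

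For 3 of the genes called in both comparisons, Uqcrc1, Cox7a1 and Cox6b2, and for Cox6b1, the common form of Cox6b2, the letters around the annotated start are shown to place the isoforms beside a constitutive subunit. RefSeq promoter windows of build GRCm38.p6, 250 bases before to 50 after each gene's start, were matched for 65 of the 80 genes, in 70 windows. Each is printed 5′ to 3′ on the gene's strand. Uqcrc1 lies at chr9:108936398-108936697 on the plus strand, Cox7a1 at chr7:30183921-30184220 on the plus strand, Cox6b2 at chr7:4753045-4753344 and Cox6b1 at chr7:30626065-30626364, both on the minus strand. Capitals mark a match to the NRF1 letters GCATGCG in Uqcrc1, which overlap on both strands there, and to the ETS letters CCGGAAG, read on the other strand, in Cox6b1.
Uqcrc1: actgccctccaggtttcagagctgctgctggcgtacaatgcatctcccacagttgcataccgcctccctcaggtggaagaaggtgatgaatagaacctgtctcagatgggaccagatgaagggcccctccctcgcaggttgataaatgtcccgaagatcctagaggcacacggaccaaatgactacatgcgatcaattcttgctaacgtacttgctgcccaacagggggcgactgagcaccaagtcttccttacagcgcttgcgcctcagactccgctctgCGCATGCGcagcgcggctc
Cox7a1: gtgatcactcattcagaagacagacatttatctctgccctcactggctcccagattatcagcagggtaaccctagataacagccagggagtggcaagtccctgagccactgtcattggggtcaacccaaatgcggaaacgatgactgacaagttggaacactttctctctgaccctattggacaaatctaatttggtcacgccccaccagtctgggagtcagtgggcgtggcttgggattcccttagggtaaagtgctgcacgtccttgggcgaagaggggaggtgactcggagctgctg
Cox6b2: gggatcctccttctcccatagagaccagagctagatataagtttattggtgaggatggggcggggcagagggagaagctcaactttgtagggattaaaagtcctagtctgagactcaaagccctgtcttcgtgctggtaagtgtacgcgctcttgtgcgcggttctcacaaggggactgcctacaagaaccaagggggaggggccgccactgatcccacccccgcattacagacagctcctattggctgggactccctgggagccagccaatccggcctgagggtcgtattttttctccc
Cox6b1: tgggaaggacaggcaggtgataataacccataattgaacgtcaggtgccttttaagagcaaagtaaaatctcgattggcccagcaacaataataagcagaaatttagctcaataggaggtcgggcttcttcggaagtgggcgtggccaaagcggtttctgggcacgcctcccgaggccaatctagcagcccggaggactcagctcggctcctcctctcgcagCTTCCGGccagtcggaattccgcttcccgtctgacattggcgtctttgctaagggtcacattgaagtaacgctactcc
NRF1 and the ETS factor GABP are known activators of respiratory chain genes. The NRF1 letters stood in 11 of the 70 member windows (15.7%) and in 3.58% of all 32851 windows of this length, on either strand. The ETS letters stood in 16 (22.9%, against 8.86%) and the YY1 letters AAGATGG in 11 (15.7%, against 6.34%). Of the 11 genes with the NRF1 letters, Uqcrc1 (-1.41) and Atp5l (0.87) were called between the NOD states, and Atp5j (-0.61), Ndufa11 (-0.56), Uqcr (-0.51), Atp5g2 (-0.42), Atp5k (-0.41), Ndufa8 (-0.25), Cox6a1 (-0.21), Sdhb (0.09) and Ndufa6 (0.3) were not. The windows of Cox7a1 and Cox6b2 held none of the 3 motifs. A match is a description of these letters and not of binding.

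The comparisons that follow share groups with those above and with each other, so each is given with its own values. The first set the arrays labelled EpiSC iPS against EpiSC. No slide held arrays of both groups. With slide as a fixed block these groups are joined only through NOD ES replicate 1, which shares the slide of the EpiSC iPS arrays. In EpiSC iPS 19 members rose and 0 fell, beside 20.9% of all genes called, 11.7% higher and 9.2% lower. The members' median was 0.49 and that of all genes 0.4. Complex IV had 6 genes higher and a median of 0.82, complex I 8 and 0.39, complex V 3, complex III 2, and complex II none with a median of -0.04. Cox6b2 (2.2 ± 0.34, adjusted p = 0.00109), Uqcrc1 (1.85 ± 0.24, adjusted p = 0.00029), Cox6a2 (1.55), Uqcrq (1.48), Cox7a1 (1.45 ± 0.25, adjusted p = 0.00202), Atp5g1 (1.41), Ndufv1 (1.4 ± 0.22, adjusted p = 0.00119), Ndufb7 (1.23), Cox5b (1.11) and Ndufb10 (1.1) had the largest differences. Uqcrc1 was at 6.24 and 5.93 on EpiSC iPS, Cox6b2 at 2.72 and 3.63 and Uqcrq at 7.63 and 6.79 (EpiSC 5.79 and 5.66). The genes Uqcrc1, Cox7a1, Cox6b2, Cox4nb, Ndufv1, Atp5g1 and Uqcrq were called in 3 of the 4 other scalings, and no member was called with normexp (4 at an unadjusted p under 0.05). With every probe tested, Cox4nb and Uqcrq were each called on some of their probes only, and another probe of Uqcrq had the opposite sign. With quantile normalization 7 genes were higher and 4 lower, beside 8.63% and 11.7% of all genes. Of 20 fibroblast markers 3 fell and 0 rose, and their mean level was 3.28 and 0.42 on the EpiSC iPS arrays. Their part in the subunit differences was not tested. The count of 19 was 7 without EpiSC replicate 1, 6 without EpiSC replicate 2, 12 without EpiSC iPS replicate 1, 29 without NOD ES replicate 1, and without both arrays that stand apart 27 higher and 7 lower (24.2% and 17.6% of all genes), where EpiSC iPS is 1 array taken to vary as the other groups do.

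Set against EpiSC, the NOD EpiSC-like lines had 4 members higher and 2 lower, beside 16.1% of all genes called, 7.99% higher and 8.11% lower. The members' median was -0.02 and that of all genes 0.28. Cox6b2 (1.64 ± 0.29, adjusted p = 0.00321) and Cox6a2 (1.63 ± 0.29, adjusted p = 0.00357) led, followed by Ndufa13 and Uqcrq (0.82 each), and Cox4nb (-1.08 ± 0.16, adjusted p = 0.0013) and Cox7c (-0.82) were lower. With every probe tested, Uqcrq and Cox4nb were each called on some of their probes only, and another probe of Uqcrq had the opposite sign. For Cox6a2 the EpiSC-like ES arrays overlapped EpiSC, so the difference came with the iPS line. The Cox4nb difference did so too: its mean was 2.15 in EpiSC, 1.99 in EpiSC-like ES and 0.14 in EpiSC-like iPS, and on the slide that held EpiSC beside the ES line alone the difference was -0.04. The count was 3 without EpiSC replicate 1, 1 without EpiSC replicate 2, 12 without NOD ES replicate 1, and 22 without both arrays that stand apart (41.4% of all genes).

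NOD ES cells had 9 members higher and 1 lower than 129 ES cells (mESM), beside 9.02% of all genes called, 6.08% higher and 2.94% lower. Of these, 7 higher were complex I genes: Ndufb7 (1.31), Ndufa2 (1.28), Ndufa5 (1.18), Ndufv1 (1 ± 0.2, adjusted p = 0.013), Ndufb10 (0.98), Ndufs5 (0.91) and Ndufa13 (0.85). Uqcrc1 (0.85) and Atp5d (1.18 ± 0.23, adjusted p = 0.0113) were also higher, and Atp5s lower (-1.14 ± 0.3, adjusted p = 0.0374). Ndufb7 was at 6.09, 5.65 and 5.68 on NOD ES and at 4.49 on both mESM arrays, and Atp5d at 4.46, 4.49 and 4.63 on NOD ES. The count was 0 without either mESM array (15 and 14 at an unadjusted p under 0.05) and with both averaged (13), so it rests on 2 arrays of 1 source. It was 6 without either EpiSC array, 5 without NOD ES replicate 2, 4 without NOD ES replicate 3, 18 without NOD ES replicate 1, and 28 without both arrays that stand apart (25.9% of all genes). With slide as a fixed block none of the 10 kept its call, and 19 members had an unadjusted p under 0.05. With every probe tested, Atp5s was called on some of its probes only. Fibroblast markers moved here too: 10 of 20 rose and 0 fell. Their part in the subunit differences was not tested.

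Between the NOD EpiSC-like lines, the iPS line had 16 members higher and 4 lower than the ES line, beside 25.7% of all genes called, 13.9% higher and 11.8% lower. This split turned with the scaling. It was 5 higher and 17 lower with quantile normalization (11.7% and 14.5% of all genes). With scaling to the median of measured probes it was 15 and 11 (2617 and 3243 of all 23161 genes). In the deposited table it was 5 and 26 (12.7% and 15.5% of all genes), and no member was called with normexp (59 at an unadjusted p under 0.05). For 14 of the 20 called genes some scaling gave the opposite sign. The largest differences of genes measured on all arrays of both lines were Cox6a2 (2.19 ± 0.3, adjusted p = 0.000467), Cox4nb (-1.85 ± 0.17, adjusted p = 3.51e-05), Cox6b2 (1.44 ± 0.3, adjusted p = 0.00514), Ndufa11 (-1.21), Uqcrh (1.13) and Ndufs1 (-1). Cox6b2 and Uqcrh had the opposite sign with normexp. With every probe tested, Cox4nb was called on some of its probes only. Cox8b, the heart and muscle form of subunit 8, was called higher in the iPS line (adjusted p = 0.0454), but passed the filter by 3 of 16 arrays, both iPS arrays among them. It was at -3.45 and -2.8 in the iPS line and at -5.42, -4.23, -5.69 and -6.16 in the ES line, where 1 of 4 arrays was well above background, so that its difference is not well measured, and its call was lost without any of 10 single arrays (adjusted p = 0.0509 to 0.283). Of 20 fibroblast markers 5 were lower and 0 higher in the iPS line, and their part in the subunit differences was not tested. With slide as a fixed block 18 of the 20 called members lost their call. The count was 6 without EpiSC-like iPS replicate 1, 3 without replicate 2, 13, 12 and 10 without EpiSC-like ES replicates 2, 3 and 4, 13 without either mESM array, 31 without NOD ES replicate 1, and 43 without both arrays that stand apart (50.5% of all genes).

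**Figure D4:**
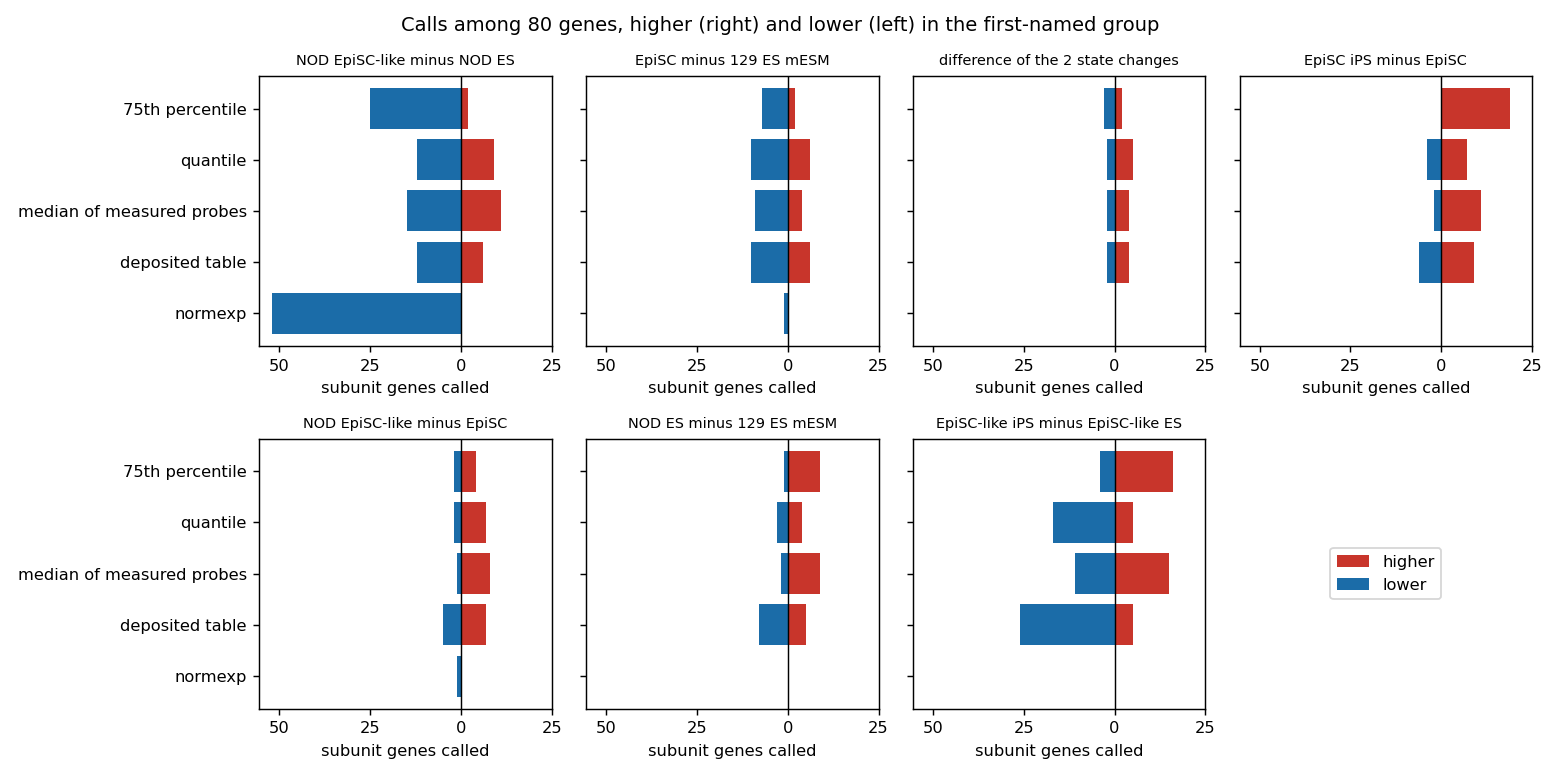
Number of the 80 subunit genes called higher (red, right) or lower (blue, left) in the first-named group of each of the 7 comparisons, under 5 ways of scaling the arrays. In NOD EpiSC-like minus NOD ES the lower calls run from 12 to 52, and between the EpiSC-like lines the split turns from 16 higher and 4 lower to 5 higher and 26 lower.

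Genes that work with the respiratory chain gave the following counts, to be read beside 20.8% of all genes called lower and 17.4% higher in the NOD lines, and 11.5% and 12.6% in EpiSC. Among mitochondrial ribosomal proteins, which translate the subunits encoded in mitochondrial DNA, 26 of 30 fell and 1 rose in the NOD EpiSC-like lines (median -0.95), with Mrps2 (-2.19), Mrpl15 (-2.11) and Mrps5 (-1.87) in front, while in EpiSC 4 fell and 2 rose (median -0.33), Mrpl15 by -1.62 and Mrps5 by -1.36. Of 42 assembly factors, which build the complexes, 18 fell and 4 rose in the NOD lines (median -0.45), among them Sco1 (-1.8), which brings copper to complex IV, and Ndufaf4 (-1.41). In EpiSC 9 fell and 3 rose (median -0.34), among them Cox18 (-1.36) and Cox15 (-1.26). Of 17 electron carriers and their enzymes, 11 fell and 1 rose in the NOD lines (median -0.99), with Dhodh (-2.8), which feeds electrons from pyrimidine synthesis, and Pdss1 (-2.17) and Coq4 (-1.66) of ubiquinone synthesis. In EpiSC 6 fell and 0 rose (median -0.58), with Coq8a (-2.01), Dhodh (-1.65) and Pdss1 (-1.47).

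Of 22 genes of the citric acid cycle and pyruvate dehydrogenase, 9 fell and 2 rose in the NOD EpiSC-like lines (median -0.34). Pyruvate dehydrogenase subunits Pdhb (-1.59) and Pdha1 (-1.13) fell, and Pdp1 (2.58), the phosphatase that activates the complex, rose. In EpiSC 4 fell and 1 rose (median -0.55), with Idh3a (-1.62) and Pdha1 (-0.99) lower and Pdp1 (1.24) higher. Of 14 regulators of mitochondrial biogenesis, 6 fell and 1 rose in the NOD lines (median -0.58), with Pprc1 (-2.42), a PGC-1 relative, and Lrpprc (-2.27), which stabilises mitochondrial mRNA. In EpiSC 5 fell and 1 rose (median -0.67), with Ppargc1b (-1.69) and Gabpa (-1.57), a subunit of GABP, lower and Nrf1 (1.28) higher. The medians of all genes in these comparisons were -0.22 and -0.28. In the other 4 scalings every one of these list medians stayed below 0. In the NOD lines it lay between -1.52 and -0.65 for mitochondrial ribosomal proteins, of which 22 or 23 were called lower, between -1.2 and -0.68 for electron carriers (9 to 12 lower) and between -1.08 and -0.03 for the citric acid cycle genes (5 to 11 lower). In EpiSC 0 to 9 mitochondrial ribosomal proteins, 1 to 7 electron carriers and 0 to 7 citric acid cycle genes were called lower in these scalings. For assembly factors it was 0 to 12, and for regulators of biogenesis 0 to 6.

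The 129 ES array labelled epiESM has no replicate and was not tested. It had Cox7a1 at 2.79, Uqcrc1 at 5.33, Ndufv1 at 4.75 and Cox4nb at 3.7, each nearer to the other ES arrays than to EpiSC. Cox6b2 at 2.17 lay between EpiSC and mESM, and Cox7a2l at 3.78 lay nearer to EpiSC. Its mean fibroblast marker level was 2.48, against -1.73 to -1.72 on mESM.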

How the data were processed

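RNA of 16 cultures in 7 groups was measured on 1-colour Agilent arrays (design 014868, grid build mm7; Feature Extraction 10.1.1.1, per the file headers). The processed signal is an intensity that the authors' software background-subtracted within each array, per the file headers. The deposited value table holds log2 values of the mean signal, quantile-equalised without background correction as judged from the values (median 6.93). The submitters' processing notes name limma. Each array held 45018 features, 43379 of them gene spots. Control spots were dropped and outlier spots set to missing. Log2 processed signals minus the array's 75th percentile were filtered to probes well above background on at least 2 arrays, and a gene was taken by its probe with the highest mean.

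With limma 3.58.1 in R 4.3.3, 1 mean per group was fitted over all 16 arrays for 23161 genes, in 7 comparisons, with Benjamini-Hochberg adjustment over all genes and calls at an adjusted p under 0.05. Changes are called "rose" and "fell" only where called. The fit was run on simulated data with independent noise, no slide effect and no array near another group. That run checks the code and not these arrays. The labels do not say whether arrays of a group are separate cultures, so p-values measure the spread between these samples, which may be technical. The number of arrays limits the precision. Members and gene lists were chosen with earlier results of these data known, and the lists are described by counts and medians. Genes are named by this rule: isoform sets, the called member that rose or fell most in each complex, the 10 largest called differences in each comparison, and up to 4 genes of each related list, with some others named to account for all calls. Alternatives were quantile, median and normexp (offset 50) scaling, the deposited table, no filter, the mean over probes, single probes, slide as fixed or random block (correlation 0.258), only the groups compared, leaving out arrays, and, chosen after seeing the data, averaged mESM arrays and quantile normalization without both arrays that stand apart.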

Additional observations from a re-analysis of the deposited data

Results flagged for a closer look

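The change from ES to EpiSC-like cells in the NOD lines differed from that between ES cells and EpiSC in the non-NOD lines, by the test of the difference itself, for 5 of the 80 genes, beside 12.5% of all genes: Cox6a2 (1.75 on the log2 scale), Atp5s (1.59), Atp5d (-1.22), Cox4nb (-1.13) and Ndufv1 (-1.06). No gene had an array far from the others among the 4 EpiSC-like ES arrays, the one group large enough to be checked, where chance would mark about 1 gene in 20.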

How the results depend on the processing

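The labels give no pairing of arrays between groups, so arrays were not paired. Slide, which some arrays of different groups share, was fitted as a fixed or random block as an alternative. Counts of subunit genes called moved by over 1.5 times as follows, the cause not tested beyond what each alternative's construction changes. The share of all genes called in each setting, which can move as well, does not stand beside these counts. In NOD EpiSC-like minus NOD ES (27 called) they were 52 with normexp, 51 without both arrays that stand apart and 41 with quantile normalization without both, and 16 to 42 leaving out 1 array. In EpiSC minus mESM (9) they were 16 with quantile normalization, 1 with normexp, 16 in the deposited table, 3 with slide as a fixed block, 39 with only the groups compared, 24 without both arrays, 3 with mESM averaged, 29 with quantile normalization without both, and 3 to 16 leaving out 1. For the difference of both (5) they were 0 with normexp (20 at an unadjusted p under 0.05), 3 with the mean over probes, 1 with the fixed block, 9 with only the groups compared, 28 without both, 0 with mESM averaged (12 unadjusted), 20 with quantile normalization without both, and 0 to 14 leaving out 1. In EpiSC iPS minus EpiSC (19) they were 11 with quantile normalization, 0 with normexp (4 unadjusted), 32 with the fixed block, 0 with only the groups compared (13 unadjusted), 34 without both, 37 with quantile normalization without both, and 6 to 29 leaving out 1. In NOD EpiSC-like minus EpiSC (6) they were 1 with normexp, 12 in the deposited table, 11 with only the groups compared, 22 without both, 27 with quantile normalization without both, and 1 to 12 leaving out 1. In NOD ES minus mESM (10) they were 0 with normexp (2 unadjusted), 6 with no filter, 0 with the fixed block (19 unadjusted), 3 with the random block, 0 with only the groups compared (19 unadjusted), 28 without both, 0 with mESM averaged (13 unadjusted), 25 with quantile normalization without both, and 0 to 18 leaving out 1. In EpiSC-like iPS minus EpiSC-like ES (20) they were 0 with normexp (59 unadjusted), 31 in the deposited table, 3 with the fixed block, 43 without both, 13 with mESM averaged, 44 with quantile normalization without both, and 3 to 31 leaving out 1.

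Signs reversed with normexp for Cox7a2l (-0.61) and Atp5l (-0.51) in NOD EpiSC-like minus NOD ES, and for Ndufa13 (-0.47) and Uqcrq (-0.43; -0.24 with the mean over probes) in NOD EpiSC-like minus EpiSC. Between the EpiSC-like lines they reversed with normexp for Cox4i1 (-0.93), Cox6b2 (-0.18), Atp5d (-1.02), Cox6a1 (-0.98), Cox7a2 (-1.11), Atp5e (-0.86), Ndufs7 (-1.25), Ndufa13 (-0.92), Ndufa2 (-1.09), Uqcrh (-0.47), Cox7a2l (-0.81), Ndufb10 (-1.21), Uqcrq (-0.77) and Atp5l (-1.24). They reversed in the deposited table for Cox4i1 (-0.24), Cox6a1 (-0.89), Atp5e (-0.16), Ndufa13 (-0.46), Ndufb10 (-0.1) and Uqcrq (-0.31), and with quantile normalization, with or without both arrays, for Cox6a1 (-0.31) and Ndufa13 (-0.07).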
